A study of Mus musculus with 7 samples.

Results

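The genes described here are 9 regulators of olfactory receptor choice: the transcription factor genes Lhx2, Ebf1, Ebf2, Ebf3, Ebf4, Emx2 and Atf5, the cofactor gene Ldb1 and the demethylase gene Kdm1a. They were chosen by name from 21887 protein-coding genes, with earlier results of these data known, and all 9 were found in the RefSeq gene table. For each gene, peaks were taken over the gene body with 10 kb on either side, called the window below. Chromatin immunoprecipitation and sequencing had been done for H3K27me3 (2 libraries) and H3K27ac (2 libraries) on globose basal cells, the progenitors that rebuild the olfactory epithelium after injury. The donors of all 4 libraries were adult wild-type mice whose epithelium had been lesioned with methimazole 7 to 10 days before. Each replicate pooled the cells of 3 mice, and the cells had been selected magnetically by an antibody to c-Kit. There was no unlesioned group and no mutant, so the marks are set against each other and the 9 genes against all other genes.

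Each mature olfactory neuron transcribes a single allele of a single olfactory receptor gene. Lhx2, a LIM-homeodomain factor, and the Ebf proteins bind together at the receptor gene enhancers, where Lhx2 recruits Ldb1, an adaptor that holds enhancers on different chromosomes in contact. Kdm1a (LSD1), a histone lysine demethylase, is needed for the first transcription of a receptor gene. The receptor protein then sets off the unfolded protein response, through which Atf5 shuts Kdm1a down again and so fixes the choice. Emx2, a homeodomain factor, is needed for the expression of many receptor genes. H3K27me3 is laid down by the Polycomb methyltransferase and goes with silent genes, whereas H3K27ac, on the same residue, goes with active promoters and enhancers.

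The H3K27me3 lists held 95749 and 65172 peaks in replicates 1 and 2, and the H3K27ac lists held 77680 and 64279. Bases covered in both replicates of a mark made up 50.1% and 55.8% of the H3K27me3 replicates and 59.0% and 76.2% of the H3K27ac replicates. Only 5.89% and 2.34% of H3K27me3 peaks had a −log10 q of 5 or more, against 31.1% and 18.8% of H3K27ac peaks, and the read depth is unknown. Among markers of globose basal cells, 5 of 6 carried H3K27me3 and 6 of 6 carried H3K27ac at the gene start, Kit included, where 26.7% and 61.5% of all protein-coding genes did. The 4 markers each of other cell types carried H3K27ac at the start in 1 (horizontal basal cell), 3 (sustentacular), 4 (immature neuron), 3 (mature neuron), 1 (mast cell), 2 (melanocyte) and 2 (leukocyte) cases. In the same order, H3K27me3 was at 3, 0, 3, 1, 0, 1 and 1 of these starts. Both marks were at 5 of 6 starts of globose basal cell markers and at 3 of 4 of immature neuron markers. They were also at 1 of 4 starts each of horizontal basal cell and leukocyte markers. The sustentacular, mature neuron, mast cell and melanocyte markers had both at 0 starts. Of all protein-coding genes 16.3% carried both marks at the start. Of the mast cell genes, Hdc had H3K27ac over 37.4% and 29.0% of its window in replicates 1 and 2, and Cpa3, Fcer1a and Ms4a2 had no H3K27ac peak in their windows in either library. The part of other cell types in the results was not tested.

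The 9 genes fell into 2 classes at their starts. The homeodomain and Ebf factor genes Lhx2, Emx2, Ebf1, Ebf2, Ebf3 and Ebf4 had peaks of both marks within 1 kb of a gene start in every library. For Ebf2, which has no listed start, this was its lower-coordinate gene end. At their starts, Ldb1, Kdm1a and Atf5 had H3K27me3 in neither library and H3K27ac in both. To carry a mark, a gene needed a peak in each of the 2 libraries of that mark. By that rule 6 of the 9 carried H3K27me3 at a start, where 26.7% of all protein-coding genes did, 9 of 9 carried H3K27ac (61.5% of all genes) and 6 carried both (16.3%). These are cells in bulk, so whether both marks lay on the same nucleosomes or in different cells of the pool cannot be told apart, nor can fewer marked cells from less mark per cell.

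Over the whole windows, 7 of the 9 carried H3K27me3 (53.8% of all genes), 9 carried H3K27ac (72.1%) and 7 carried both (43.6%). Atf5 was the gene added by the wider window, through H3K27me3 in its 3′ flank. Long windows catch peaks more often: among 3583 genes with windows of 90 kb or more, a class that includes all 4 Ebf genes, 72.4% carried H3K27me3, 87.4% carried H3K27ac and 62.5% carried both. The covered share of the window is a percentage of its length. Its median over the 9 genes was 8.98% and 9.86% in H3K27me3 replicates 1 and 2, where the median of all genes was 2.12% and 0.766%. In H3K27ac replicates 1 and 2 the median was 40.2% and 32.3% over the 9 genes and 5.04% and 4.09% over all genes. With 2 libraries a mark, an exact two-sided permutation test between the marks cannot give a p below 0.333, so the values are a description.

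**Figure D1:**
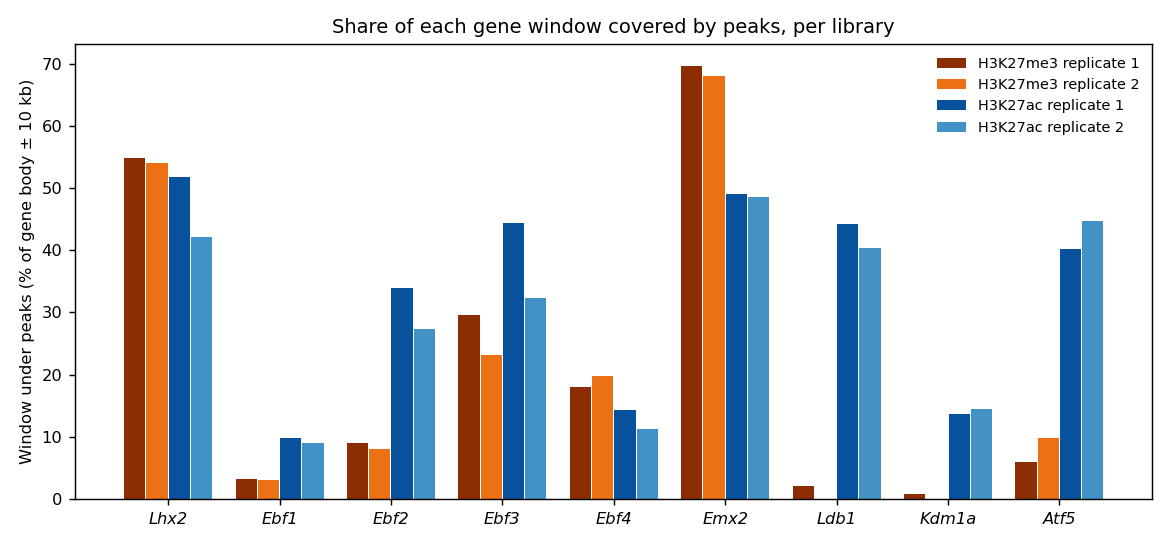
Share of each gene's window (gene body with 10 kb on either side) that lies under peaks, in percent; 1 bar per gene and library, H3K27me3 in brown and orange, H3K27ac in blues. Emx2 and Lhx2 have the tallest H3K27me3 bars (68.1% to 69.7% and 54.1% to 54.9%), while Ldb1 and Kdm1a have a bar of at most 2.08% in replicate 1 and none in replicate 2.

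By the authors' q values, H3K27me3 was called with less certainty in replicate 2. The highest −log10 q of any H3K27me3 peak at the 9 genes in that list was 4.23, at Lhx2. When only peaks with a −log10 q of 5 or more were kept in both libraries, 0 of the 9 genes carried H3K27me3 in the window (6.44% of all genes did) and 8 carried H3K27ac (55.5%), Ebf4 being the gene that dropped out. At the starts, too, 0 of the 9 carried H3K27me3 past that limit (4.35% of all genes). In replicate 1 alone, each of the 6 homeodomain and Ebf factor genes had at least 1 H3K27me3 peak past it in the window, where 18.2% of all genes did. At a −log10 q of 2 or more, these 6 carried H3K27me3 in both libraries, over the window (30.6% of all genes) and at the start (16.4%). With no limit on q, replicate 1 alone gave a peak in the windows of all 9 genes, and it did so for 73.1% of all genes.

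**Figure D2:**
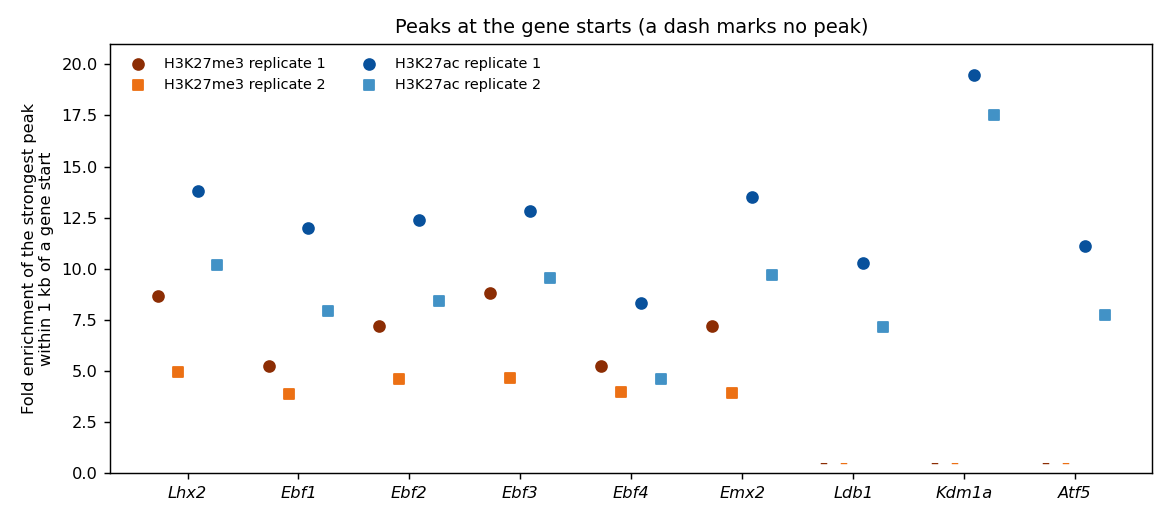
Fold enrichment, as the authors gave it, of the strongest peak within 1 kb of a gene start, 1 point per gene and library. For Ebf2, which has no listed start, either gene end stood in. Dashes near 0 mark libraries without a peak. Within each list, Kdm1a is the highest of the 9 genes for H3K27ac (19.5 and 17.5), and H3K27me3 points are seen at 6 genes only; heights are not levels that can be set against each other between lists.

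Of the promoters under both marks 4 are shown, with those of the 3 genes with H3K27ac alone, to set the sequence beside the marks. Each line gives the 250 bases before the listed start from RefSeq (GRCm38.p6), 5′ to 3′ on the strand of the gene, with CpG dinucleotides in capitals.
Lhx2, start inside the gene (chr2:38351058-38351307, plus strand): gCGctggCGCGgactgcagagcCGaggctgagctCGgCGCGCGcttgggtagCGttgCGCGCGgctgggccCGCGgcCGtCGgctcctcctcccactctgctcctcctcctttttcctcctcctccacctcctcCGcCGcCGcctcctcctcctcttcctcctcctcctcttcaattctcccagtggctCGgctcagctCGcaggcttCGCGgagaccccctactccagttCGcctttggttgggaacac
Ebf3 (chr7:137314446-137314695, minus strand): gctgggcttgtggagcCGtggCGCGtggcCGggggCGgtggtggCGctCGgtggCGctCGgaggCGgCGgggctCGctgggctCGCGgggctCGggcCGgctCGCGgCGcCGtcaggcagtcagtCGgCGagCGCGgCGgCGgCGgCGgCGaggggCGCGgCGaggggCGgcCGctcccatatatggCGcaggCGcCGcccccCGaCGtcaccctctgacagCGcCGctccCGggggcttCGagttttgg
Ebf1, upstream start (chr11:44617850-44618099, plus strand): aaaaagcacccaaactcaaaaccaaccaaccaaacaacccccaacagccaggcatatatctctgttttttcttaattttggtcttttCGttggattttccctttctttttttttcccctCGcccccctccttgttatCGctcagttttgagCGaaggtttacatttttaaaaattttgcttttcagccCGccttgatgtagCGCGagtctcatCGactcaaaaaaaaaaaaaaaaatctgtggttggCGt
Emx2 (chr19:59458440-59458689, plus strand): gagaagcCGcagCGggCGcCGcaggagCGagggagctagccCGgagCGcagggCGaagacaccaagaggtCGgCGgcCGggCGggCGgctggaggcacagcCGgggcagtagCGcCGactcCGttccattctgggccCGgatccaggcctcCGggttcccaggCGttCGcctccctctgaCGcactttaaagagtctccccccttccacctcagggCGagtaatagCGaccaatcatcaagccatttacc
Ldb1, upstream start (chr19:46045312-46045561, minus strand): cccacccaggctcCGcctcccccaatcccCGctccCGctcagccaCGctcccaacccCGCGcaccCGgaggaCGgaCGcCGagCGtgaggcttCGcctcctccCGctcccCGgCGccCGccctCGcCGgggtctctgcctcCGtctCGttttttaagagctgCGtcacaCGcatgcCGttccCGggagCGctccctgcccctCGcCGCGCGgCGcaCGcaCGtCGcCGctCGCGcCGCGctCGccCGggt
Kdm1a (chr4:136602724-136602973, minus strand): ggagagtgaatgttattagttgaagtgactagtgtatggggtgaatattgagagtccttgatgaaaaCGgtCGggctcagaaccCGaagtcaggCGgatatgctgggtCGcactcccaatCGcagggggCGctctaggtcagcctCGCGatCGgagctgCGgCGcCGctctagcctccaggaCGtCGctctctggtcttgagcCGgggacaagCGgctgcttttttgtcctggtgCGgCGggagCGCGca
Atf5, upstream start (chr7:44816659-44816908, minus strand): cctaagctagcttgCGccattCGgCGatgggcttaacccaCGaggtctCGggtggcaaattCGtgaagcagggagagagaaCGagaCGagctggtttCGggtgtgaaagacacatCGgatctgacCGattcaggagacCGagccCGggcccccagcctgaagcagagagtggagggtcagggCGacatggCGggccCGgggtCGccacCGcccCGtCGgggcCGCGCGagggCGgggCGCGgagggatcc

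All 250 bases shown for Lhx2, Ebf3, Ebf1 and Emx2 lay under peaks of all 4 libraries. Of those of Ldb1, Atf5 and Kdm1a, 0 bases lay under H3K27me3. Both H3K27ac libraries covered the Ldb1 and Atf5 promoters whole, and at Kdm1a the H3K27ac peak took in the last 99 and 84 bases. CpG content overlapped between the classes. The Ebf3 promoter held 43 CpGs, more than 99.1% of the 21263 promoters in the table, and the upstream Ldb1 promoter held 40, more than 98.3%. With 24 CpGs in Emx2, 24 in the Lhx2 promoter shown, 26 in Atf5 and 21 in Kdm1a, both classes held promoters above the median of 10. They also held promoters below it, with 9 CpGs at the upstream Ebf1 start, under both marks, and 4 and 7 at the third Ldb1 start and the second Atf5 start, under H3K27ac alone. The GC content of the Ebf1 promoter shown was 40.0%, and the median over all promoters was 55.6%.

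The same stretches of 250 bases were searched on both strands for the core of the Ebf motif, CCCNNGGG, and for TAATTA, a core bound by many homeodomain proteins; overlapping matches were counted. Ebf3 held the Ebf core once, beginning at -21 relative to its start, and the promoter of the second Ldb1 start held it once, beginning at -47. It was found in 13.5% of all promoters. No promoter of the 8 genes with a listed start held TAATTA, which occurred in 4.31% of all promoters, nor the longer palindromic Ebf site (0.832%), the E-box CAGCTG (12.1%) or TATAAA (11.6%). The GC box GGGCGG, found in 42.6% of all promoters, was in at least 1 promoter of Lhx2, Ldb1, Ebf3, Ebf4, Emx2 and Atf5. It was absent from the second Lhx2 promoter, the third Ldb1 promoter, the Ebf1 promoters and the Kdm1a promoter. The share of 42.6% is per promoter, so it is not to be set against a count of genes. Such matches describe the letters only.

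Lhx2 lies at chr2:38339271-38369737 on the plus strand and has 2 listed starts, at 38339281 and 38351308. Its window of 50.5 kb was 54.9% and 54.1% covered in H3K27me3 replicates 1 and 2, and 51.8% and 42.1% covered in H3K27ac replicates 1 and 2. The centre of the locus was a single H3K27me3 domain of 13.7 kb, found in both libraries from 7.2 to 20.9 kb after the first start, which takes in the second start. H3K27ac replicate 1 covered 100% of this domain and replicate 2 covered 87.0%. At the second start the H3K27me3 peaks had fold enrichments of 8.67 and 4.94 and the H3K27ac peaks 13.8 and 10.2. At the first start they were lower in each list, with 6.42 and 3.45 in the H3K27me3 lists and 8.73 and 5.90 in the H3K27ac lists. The second start was thus the stronger of the pair for both marks in all 4 libraries. Before the first start, the last 250 bases lay whole under H3K27me3 in both libraries and under H3K27ac in replicate 1, while H3K27ac replicate 2 covered 0 of them.

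Bases under both marks in all 4 lists summed to 15.8 kb at Lhx2. They were 71.5% of its shared H3K27me3 bases (covered in both H3K27me3 libraries) and 77.1% of its shared H3K27ac bases. By the share of the window under all 4 lists, Lhx2 was number 14 of the 21887 genes. By H3K27me3 alone it was number 469 and by H3K27ac alone number 542. Peaks in this locus cannot be given to Lhx2 alone, since the starts of 3 long noncoding RNAs on the other strand lie at them: Gm46736 near the first start, Gm27197 near the second and Gm13584 near the 3′ end.

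Emx2, at chr19:59458690-59465357 on the plus strand, was covered still further. Its window of 26.7 kb lay 69.7% and 68.1% under H3K27me3 in replicates 1 and 2, and 49.1% and 48.5% under H3K27ac in replicates 1 and 2. Replicates thus differed by less than 2 percentage points for either mark. H3K27me3 formed 3 long shared regions, from -9.6 to -4.1 kb, from -0.9 to 5.1 kb and from 8.4 to 13.3 kb relative to the start. H3K27ac formed 2, from -1.2 to 5.6 kb and from 7.8 to 13.4 kb. The upstream H3K27me3 region had little H3K27ac, 10.9% of it in replicate 1 and 0% in replicate 2, and the other 2 lay wholly under H3K27ac in both replicates.

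At the Emx2 start the H3K27me3 peaks had a fold enrichment of 7.20 and 3.90, and the H3K27ac peaks had 13.5 and 9.70. The 10.9 kb under all 4 lists put Emx2 at number 8 of the 21887 genes by share of the window, above Lhx2. Its ranks by a single mark were 153 for H3K27me3 and 369 for H3K27ac. The antisense gene Emx2os has an annotated end at 59458635, beside the start, and ChIP-seq does not separate the strands, so the marks there cannot be given to Emx2 alone.

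**Figure D3:**
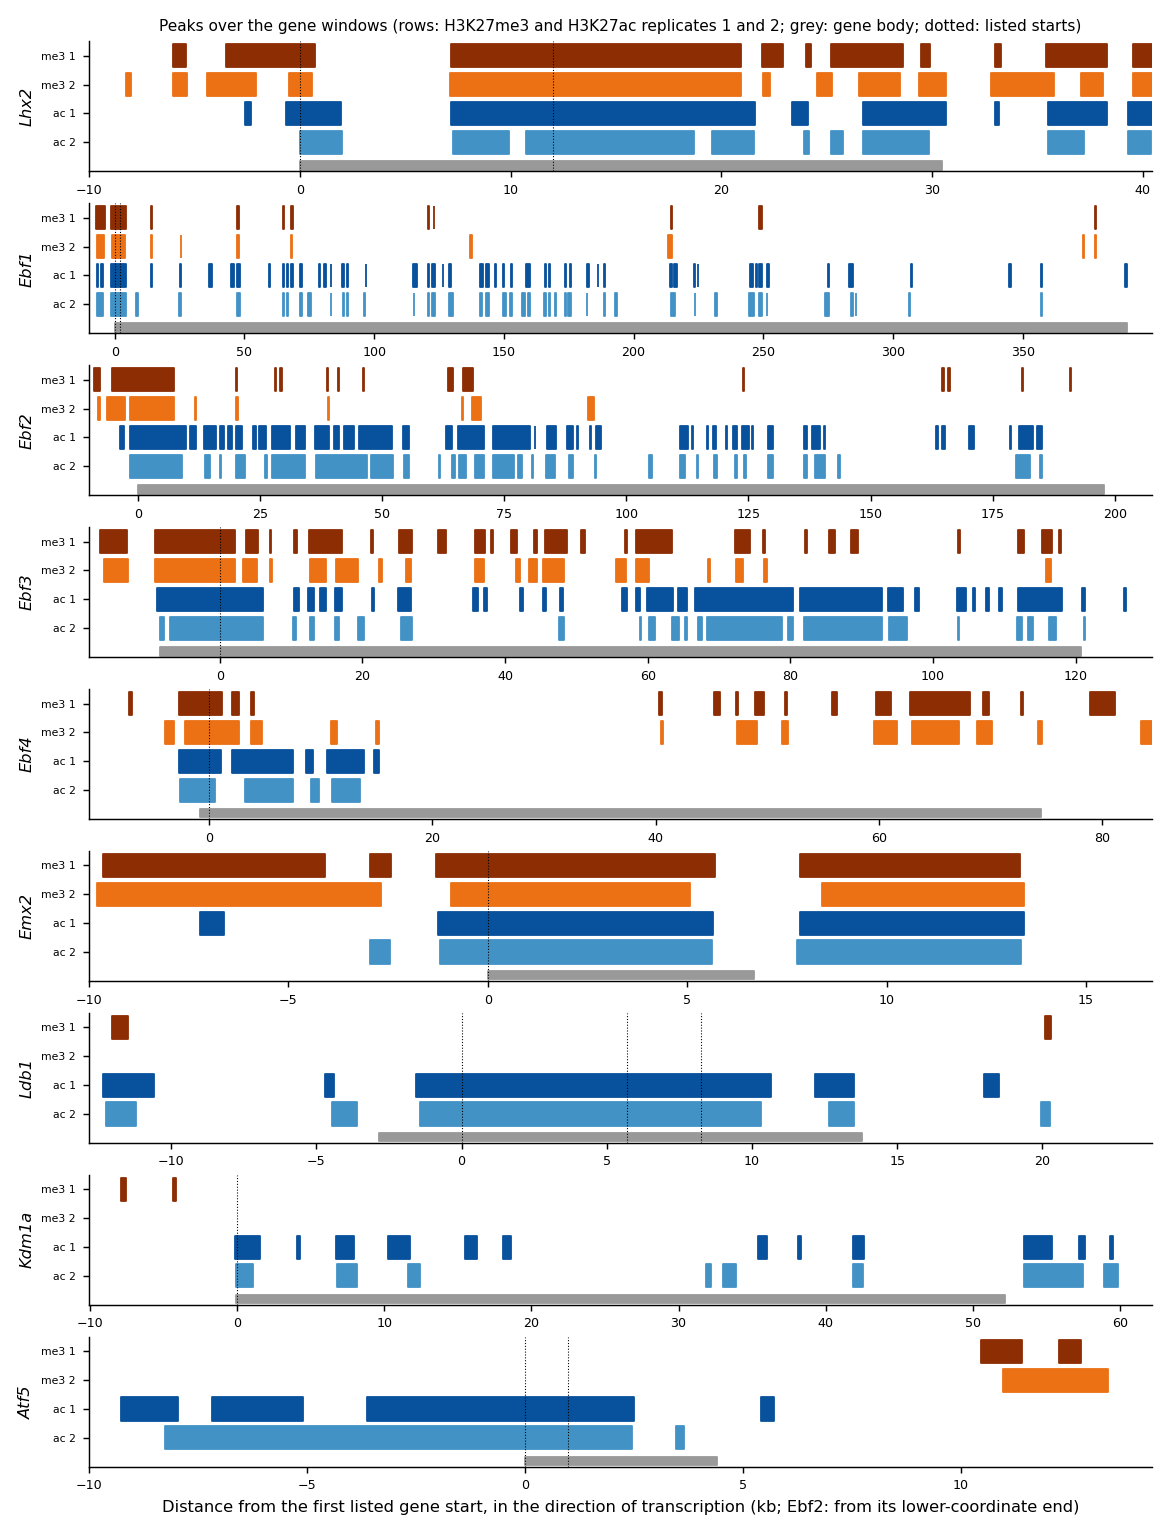
Peaks of the 4 libraries over the window of each of the 9 genes, with distance from the first listed start in kb in the direction of transcription (for Ebf2, from its lower-coordinate end); H3K27me3 replicates 1 and 2 in brown and orange, H3K27ac replicates 1 and 2 in dark and light blue, gene body in grey, listed starts dotted. The marks lie on top of each other in Lhx2 and Emx2. H3K27me3 is gathered near the start of Ebf1 and the lower-coordinate end of Ebf2, while H3K27ac runs on through these genes. Ldb1, Kdm1a and Atf5 show H3K27ac without H3K27me3 at the start.

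The Ebf genes encode helix-loop-helix factors of the Collier, Olf and Ebf family. All 4 carried both marks at the start (Ebf2 at its lower-coordinate end), and the marks parted along the gene body. Ebf1, the longest at chr11:44618100-45008096, had H3K27me3 over 3.14% and 3.08% of its window and H3K27ac over 9.79% and 9.03%. A H3K27me3 region of 5.30 kb, from -1.2 to 4.1 kb, spanned both starts, and both H3K27ac libraries covered 100% of it. There the H3K27me3 peaks reached a fold enrichment of 5.21 and 3.88, and the H3K27ac peaks reached 12.0 and 7.95.

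Of the H3K27me3 bases shared by both libraries, 80.1% lay within 10 kb of the first Ebf1 start, against 28.3% of the shared H3K27ac bases. H3K27ac formed 35 shared regions in the window, 25 of them without any H3K27me3 in either library, and those 25 held 51.9% of the shared H3K27ac bases. After the start, the strongest H3K27ac peak of each library lay about 47.0 kb into the gene, with fold enrichments of 8.07 and 5.62. This region also carried H3K27me3 in both libraries, at 3.02 and 2.78. Ebf1 was number 2274 by the share under all 4 lists.

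Ebf2, at chr14:67233292-67430952, has no entry in the promoter table, so both gene ends were looked at. Its lower-coordinate end had H3K27me3 at a fold enrichment of 7.18 and 4.60 and H3K27ac at 12.4 and 8.44, and its upper end had no peak in any library. The H3K27me3 region at the lower end was 8.95 kb long and lay 98.8% and 99.5% under H3K27ac. Over the window H3K27me3 covered 8.98% and 8.04%, and H3K27ac covered 34.0% and 27.4%. Of the shared H3K27me3 bases 95.4% lay within 10 kb of that end, as against 20.9% of the shared H3K27ac bases. Of 31 shared H3K27ac regions, 20 had no H3K27me3, among them a region of 4.43 kb at 47.7 to 52.1 kb and a region of 4.41 kb at 72.7 to 77.1 kb. The lncRNA gene Gm20675 lies next to the lower end, inside the region with both marks.

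Ebf3, at chr7:137193671-137322805 on the minus strand, had the largest share under H3K27ac of the family. H3K27me3 covered 29.6% and 23.2% of its window in replicates 1 and 2, and H3K27ac covered 44.4% and 32.3%. Around the listed start at 137314445, H3K27me3 ran from -9.1 to 2.1 kb and H3K27ac from -6.9 to 6.0 kb. That start lies inside the annotated gene, which reaches to 137322805, so positions just before it are still in the gene body. The start peaks had fold enrichments of 8.82 and 4.65 in the H3K27me3 lists and 12.8 and 9.56 in the H3K27ac lists. The strongest H3K27me3 peak of the window in replicate 1, at 11.1, ranked 377 among all genes, the best H3K27me3 rank of the 9 genes, and the strongest of replicate 2, at 4.90, ranked 2100.

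Away from its start Ebf3 had regions of either kind. H3K27me3 from -16.2 to -13.0 kb had no H3K27ac in either library. Far downstream, H3K27ac formed regions of 10.4 kb (68.4 to 78.8 kb) and 10.9 kb (81.9 to 92.8 kb), of which H3K27me3 covered 21.9% and 15.8% of the first and 19.0% and 0% of the second in replicates 1 and 2. The lncRNA gene Gm10578 has its 3′ end inside the first of these and its 5′ end within 1 kb of it. Bases under all 4 lists summed to 14.7 kb, which made Ebf3 number 313 of all genes.

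Ebf4, at chr2:130295126-130370482 on the plus strand, had H3K27me3 without H3K27ac far from its start. H3K27me3 covered 18.0% and 19.8% of its window and H3K27ac 14.3% and 11.3%. Its start peaks had fold enrichments of 5.24 and 3.96 in the H3K27me3 lists and 8.33 and 4.60 in the H3K27ac lists. These H3K27ac values were the lowest at a start among the 9 genes in each list, and ranked 9609 and 12565 among all genes by the strongest peak of the window. Its shared H3K27ac regions all ended within 13.5 kb of the start. H3K27me3 returned far into the gene, strongest from 63.0 to 67.2 kb, at a fold enrichment of 7.71 and 4.86, where neither H3K27ac library had a peak. Regions free of H3K27ac held 61.6% of the shared H3K27me3 bases in Ebf4, 13.8% in Ebf3, 3.64% in Ebf2 and 1.94% in Ebf1.

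Ldb1, at chr19:46031525-46048145 on the minus strand, had no H3K27me3 in replicate 2 and 2 weak peaks away from its starts in replicate 1, the stronger with a fold enrichment of 3.00. H3K27ac covered 44.2% and 40.4% of its window. A single H3K27ac peak of 12.2 and 11.7 kb in replicates 1 and 2 held all 3 listed starts, with a fold enrichment of 10.3 and 7.16. A stronger peak in the same window, at 13.3 and 10.4, lies at the start of the neighbouring gene Pprc1. By the share of the window under H3K27ac in both libraries, Ldb1 was number 716 of all genes.

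Kdm1a, at chr4:136550533-136602787 on the minus strand, had the strongest H3K27ac start peak of the 9 genes in each list. H3K27me3 covered 0.721% of its window in replicate 1 and 0% in replicate 2, with no peak at the start. The H3K27ac peak there reached a fold enrichment of 19.5 and 17.5, with a −log10 q of 93.7 and 45.2, and ranked 833 and 238 among all genes by the strongest peak of the window. It was also short, 1.65 and 1.20 kb. H3K27ac covered 13.7% and 14.4% of the window, and Kdm1a was number 6565 by covered share. Strength at the start and breadth over the locus thus ordered the genes differently.

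Atf5, at chr7:44812256-44816658 on the minus strand, had H3K27me3 over 5.93% and 9.86% of its window and H3K27ac over 40.2% and 44.7%. The shared H3K27me3 lay 11.0 kb or more after the start, at a fold enrichment of at most 3.92 and 3.17, and had no base under H3K27ac. The shared H3K27ac region at its starts ran from -3.6 to 2.5 kb, at a fold enrichment of 11.1 and 7.73. The genes Nup62 and Il4i1b, on the other strand, start within it, so the peak cannot be given to Atf5 alone.

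Over all 9 genes the share of the window under both marks in all 4 lists was above 0 in 6, as in 23.9% of all genes. Its median was 3.16% over the 9 genes and 0% over all genes. Lhx2 and Emx2 stood near the top of this ranking, and Ebf1 was the lowest of the 6. The order by H3K27me3 bases shared by both libraries was Emx2 (62.9% of the window), Lhx2 (43.9%), Ebf3 (18.7%), Ebf4 (11.5%), Ebf2 (5.77%), Atf5 (3.82%), Ebf1 (2.5%), and Ldb1 and Kdm1a (0%). By shared H3K27ac bases it was Emx2 (46.4%), Lhx2 (40.7%), Ldb1 (37.4%), Atf5 (34.8%), Ebf3 (30.5%), Ebf2 (23.2%), Ebf4 (10.7%), Kdm1a (7.78%) and Ebf1 (5.96%). These are shares of windows that ran from 24.4 kb (Atf5) to 410 kb (Ebf1), so the order depends on window length. In kb, shared H3K27ac was longest at Ebf2 (50.6), Ebf3 (45.5) and Ebf1 (24.4), before Lhx2 (20.6), Ldb1 (13.7) and Emx2 (12.4). Shared H3K27me3 was longest at Ebf3 (27.9), Lhx2 (22.2) and Emx2 (16.8). With 25 kb flanks the H3K27ac share of Emx2 was 23.2%, below Lhx2 (25.5%) and Ebf3 (25.4%). For H3K27me3 with 10 kb flanks, the per-library shares of Emx2, Lhx2, Ebf3 and Ebf4 did not overlap with those of their neighbours in the order by share. Ebf2 (8.98% and 8.04%) lay within the range of Atf5 (5.93% and 9.86%). For H3K27ac, the values of Lhx2 (51.8% and 42.1%) took in those of Emx2 (49.1% and 48.5%), and Lhx2, Ldb1, Atf5, Ebf3 and Ebf2 overlapped in turn, as did Ebf4 and Kdm1a. By covered share Ebf1 lay below all others in both H3K27ac libraries.

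**Figure D4:**
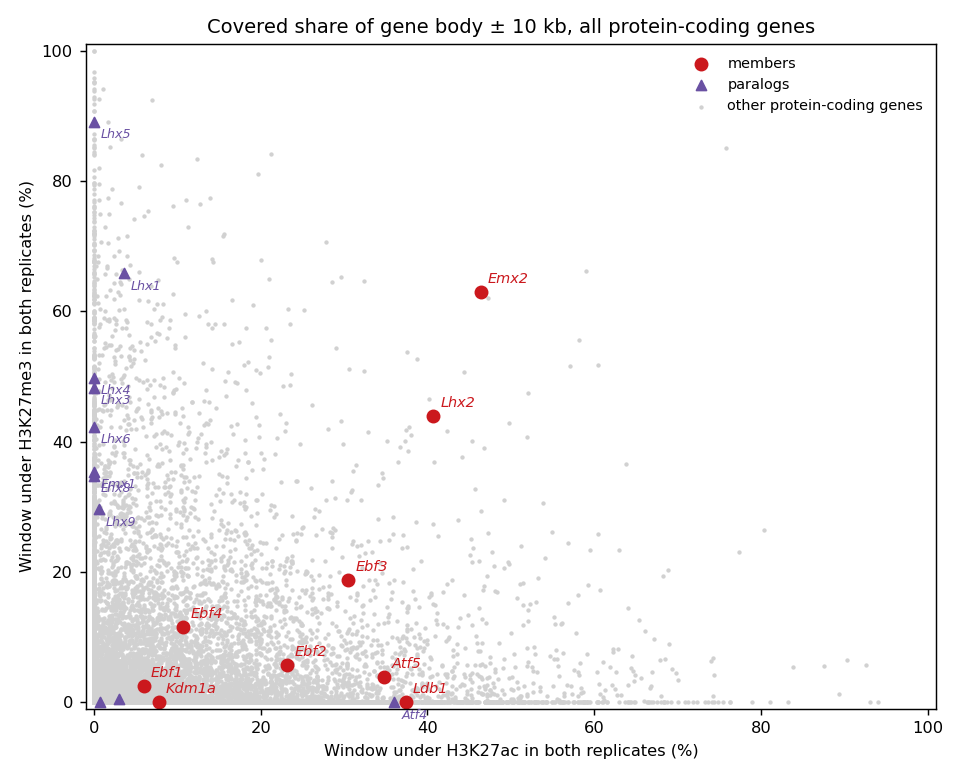
Share of the window under H3K27me3 in both replicates (vertical axis, percent) against the share under H3K27ac in both replicates (horizontal axis, percent), 1 point per protein-coding gene; red circles are the 9 genes, purple triangles their 11 paralogs. Emx2 (62.9% and 46.4%) and Lhx2 (43.9% and 40.7%) lie high on both axes, while Lhx1, Lhx3, Lhx4, Lhx5, Lhx6, Lhx8, Lhx9 and Emx1 lie at the left edge, at up to 89.1% H3K27me3 and at most 3.58% H3K27ac.

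Among the 11 paralogs of these genes, H3K27me3 alone was the most frequent class at the start. In it were the LIM-homeodomain genes Lhx1, Lhx3, Lhx4, Lhx5, Lhx6, Lhx8 and Lhx9 and the homeodomain gene Emx1. These are 8 of the 11, and the class held 10.3% of all genes. Kdm1b and Atf4 carried H3K27ac alone, Ldb2 carried neither, and 0 of the 11 carried both. Fold enrichment of H3K27me3 at the start of Lhx2, Emx2 and the 4 Ebf genes was 5.21 to 8.82 in replicate 1 and 3.88 to 4.94 in replicate 2. In those 8 paralogs it was 9.23 to 15.7 and 6.29 to 10.1, so the ranges did not overlap within either list. Both lay above the median of 4.90 and 3.83 of the 5835 genes that carried the mark at the start. Among all genes the 2 classes overlapped widely. Their medians were 5.3 and 4.07 with H3K27me3 only and 4.75 and 3.75 with both marks. In replicate 1 they ran from 2.7 to 18.4 and from 2.73 to 18.6. The median window share under H3K27me3 in both libraries was 5.77% over the 9 genes and 35.4% over the paralogs, and that under H3K27ac was 30.5% over the 9 genes and 0% over the paralogs. The lists differ in make-up, so these medians do not compare like genes. Homeodomain genes are 8 of the 11 paralogs but only Lhx2 and Emx2 of the 9, and the paralogs hold no Ebf gene. For H3K27me3, Lhx2 (43.9%) and Emx2 (62.9%) lay within the range of those 8 paralogs, 29.6% (Lhx9) to 89.1% (Lhx5).

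Emx2 and its nearest relative Emx1 can be set side by side. At its start, Emx2 had H3K27me3 at 7.20 and 3.90 with H3K27ac at 13.5 and 9.70, and Emx1 had H3K27me3 at 9.78 and 7.61 with H3K27ac in replicate 2 alone, at 3.47. The closest relative of Lhx2 in the list, Lhx9, had H3K27me3 at 11.3 and 7.70 and no H3K27ac within 1 kb of the start. Elsewhere in its window Lhx9 had H3K27ac peaks of up to 12.2 and 6.04, over 0.566% and 0.873% of the window. By the window share under H3K27me3 in both libraries the order was the other way. It was 62.9% at Emx2 and 35.4% at Emx1, and 43.9% at Lhx2 and 29.6% at Lhx9.

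Over the windows of all 61 related genes, paralogs included, 35 carried H3K27me3 (53.8% of all genes did), 55 carried H3K27ac (72.1%) and 29 carried both (43.6%). At their starts the counts were 15 for H3K27me3 (26.7% of all genes), 48 for H3K27ac (61.5%) and 6 for both (16.3%). The counts for H3K27me3 lay near the share of all genes in either place. Of the 10 partners of LIM-domain and Ebf proteins, 5 carried H3K27me3 at the start, 8 carried H3K27ac and 4 carried both, to be read against the same shares of all genes. The 4 with both marks were Ssbp4, a single-strand DNA-binding protein that stabilises Ldb1, the LIM-only gene Lmo1, and the zinc finger genes Zfp423 and Zfp521, whose products bind Ebf proteins. Zfp423 had H3K27me3 at 7.34 and 4.96 and H3K27ac at 8.10 and 4.90. For H3K27me3, Zfp521 was at 9.06 and 5.55, Ssbp4 at 3.73 and 3.25, and Lmo1 at 3.58 and 2.86. The values of Ssbp4 and Lmo1 lay below the medians of genes with the mark at the start, 4.90 and 3.83. Lmo3, another LIM-only gene, had H3K27me3 alone, at 5.24 and 2.81, and Lmo4 had H3K27ac alone, at 22.4 and 11.5.

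In the Kdm1a partner list 0 of 10 genes carried H3K27me3 at the start and all 10 carried H3K27ac. Of all genes 26.7% and 61.5% did, shares that also apply to the next 2 lists. Among the 10 were Rcor1 of the CoREST complex (H3K27ac fold enrichment 16.0 and 11.2) and the deacetylase genes Hdac1 (9.65 and 6.20) and Hdac2 (21.6 and 19.2). Several starts had a H3K27me3 peak in 1 library only, such as Rcor1 (3.11), Rcor2 (3.44) and Hdac2 (3.18) in replicate 1. The heterochromatin list gave the same counts, 0 for H3K27me3 and 10 for H3K27ac. It holds Ehmt1, Ehmt2, Setdb1 and Suv39h1, which encode H3K9 methyltransferases, and Lbr, the lamin B receptor, whose start had H3K27ac at 15.7 and 15.6. The list of the unfolded protein response and receptor feedback had H3K27me3 at 2 of 10 starts, those of the receptor trafficking genes Rtp2 (4.27 and 2.98) and Reep1 (5.57 and 3.84). H3K27ac was at all 10, with the stress kinase gene Eif2ak3 (PERK) at 15.6 and 10.1 and the stress-induced factor gene Ddit3 (CHOP) at 10.3 and 10.0. The class of Kdm1a and Atf5 at the start, H3K27ac alone, was that of all 10 partners of Kdm1a and of 8 of the 10 genes of the feedback list, and it was also the most frequent class of all genes (45.2%).

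**Figure D5:**
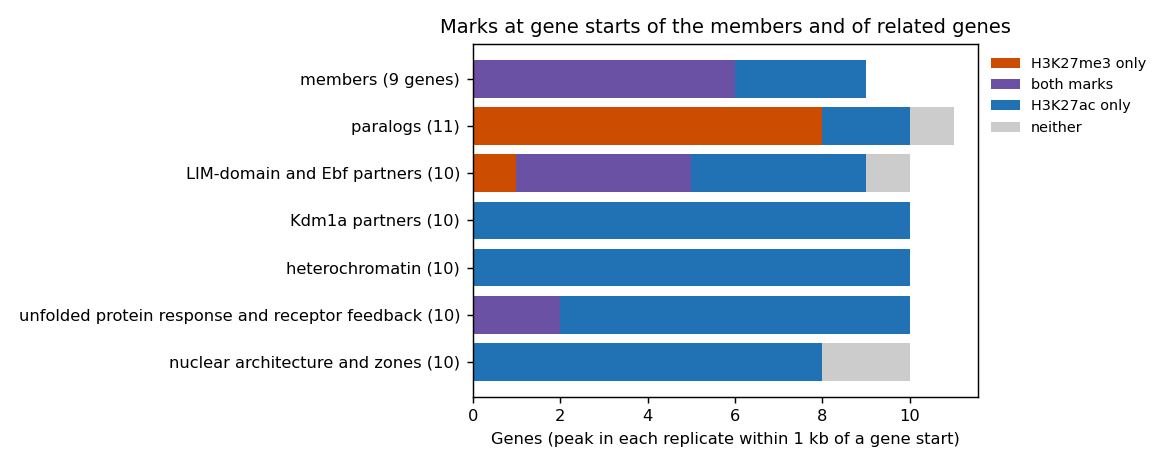
Number of genes with H3K27me3 only, both marks, H3K27ac only or neither within 1 kb of a gene start (a peak in each replicate), for the 9 genes and 6 lists of related genes; list sizes in brackets. The 9 genes split into 6 with both marks and 3 with H3K27ac only, the paralogs into 8 with H3K27me3 only, 2 with H3K27ac only and 1 with neither, and the Kdm1a partner and heterochromatin lists are H3K27ac only.

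The genes most like each member were found over the 4 libraries, by the distance between covered shares expressed as percentiles of all genes. Nearest to Emx2 was Pitx1, at a distance of 0.617 percentile points, with 76.9% and 65.1% of its window under H3K27me3 and 48.9% and 50.8% under H3K27ac. Nearest to Lhx2 was Tmem200b (1.61). For the Ebf genes the nearest were Aars and Ska1 (Ebf1), Rela (Ebf2), Rai1 and Smad3 (Ebf3) and Arhgef15 and Dusp26 (Ebf4). They were P4hb and Pptc7 for Ldb1, Hnrnpk and Ccdc84 for Kdm1a, and Rnf181 and Tmco6 for Atf5. The distances ranged from 0.617 for Pitx1 to 4.49 for Tmco6.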

How the data were processed

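ChIP-seq of H3K27me3 and H3K27ac in globose basal cells gave 4 peak lists, 1 per library, and 3 input libraries were not analysed here. Groups and replicate numbers came from the sample titles. The submitters' processing notes name fastp, Bowtie, Picard, MACS2 and the build GRCm38 (mm10). Tool versions are not given in the sources used here. For each broad peak the authors deposited a fold enrichment (a linear ratio), a −log10 p, a −log10 q and a score, which is the −log10 q multiplied by 10 and truncated, but for 7 or fewer peaks of a list. The fold enrichment is the authors' value per peak and was used to describe, rank and filter within a list. Read totals are not given in the files, so depth is unknown, no interval is given, and the absence of a peak holds only at that depth and at the peak caller's threshold.

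Gene coordinates came from the RefSeq table of GRCm38.p6 and gene starts and promoter sequences from the RefSeq promoter table, which lists a start for 79.9% of the 21887 protein-coding genes and for 8 of the 9 described here. For the others either gene end stood in. Windows were the gene body with 10 kb on either side, or 1 kb on either side of a start, with an overlap of at least 1 bp. The lists were read in Python 3.11.15 with numpy 2.4.6 and pandas 2.3.3, figures were drawn with matplotlib 3.10.9, and the interval code was tested on simulated peaks. Replicates of a mark are taken as separate pools of mice, as the labels describe them. No test was made, since 2 libraries a mark allow no p below 0.333.

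The 9 genes and the lists of related and marker genes were chosen with earlier results of these data known. Named genes are the 9 genes, up to 4 genes per class from each list of related genes in the order of the list, with classes over the wider window, genes with an end within 1 kb of a shared peak of the 9, and the 2 nearest genes by percentile of covered share, leaving out Gm and Rik symbols in the last. Some of these nearest genes are not reported here. Ssbp4, Lmo1, Lmo3, Lmo4, Zfp423, Zfp521, Rtp2, Reep1 and the listed paralogs outside that limit were named for their class at the start, after their values were seen. Alternatives were thresholds on −log10 q, a minimum of 500 bp, a peak in either replicate, each replicate left out, other flanks and other start windows.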

Additional observations from a re-analysis of the deposited data

How the results depend on the processing

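No paired analysis was possible because the results come from no test, and libraries of the same number are not pairs: the labels give H3K27me3 replicate 1 an input in common with H3K27ac replicate 2. The counts of the 9 genes held within 1.5 times under all alternatives but a −log10 q of 5 or more. There H3K27me3 and both marks were at 0 of 9 in the window (6.44% and 2.36% of all genes). At the start they were also at 0 of 9 (4.35% and 0.384% of all genes). At that threshold the related genes numbered 9 of 61 with H3K27me3 and 2 with both marks in the window, to be read against the same shares of all genes. The median covered share of the 9 genes was 0% for H3K27me3 and 23.0% for H3K27ac.

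Other counts of related genes moved from 35 with H3K27me3 (53.8% of all genes) and 29 with both marks (43.6%). At a −log10 q of 2 or more they were 19 and 12 (30.6% and 21.4% of all genes). With a peak in either replicate they were 54 and 51 (76.4% and 64.7%), and over the gene body alone 23 and 15 (37.4% and 26.3%). At 500 bp, 19 carried both marks (35.3%). The shares of all genes moved in the same direction. The median covered share of H3K27me3, 5.77%, moved to 12.0% with either replicate and 4.03% over the gene body. That of H3K27ac, 30.5%, moved to 46.2% with either replicate and 20.4% with 25 kb flanks. Median shares were not computed for the 500 bp alternative.

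Leaving out each library in turn gave 7 to 9 genes of the 9 with H3K27me3 in the window (57.1% to 73.1% of all genes). It gave 7 to 9 with both marks (44.6% to 59.2%) and 9 with H3K27ac (73.4% to 75%). At the start it gave 6 with H3K27me3 (29.3% to 43.1%), 9 with H3K27ac (62.6% to 65.5%) and 6 with both (16.9% to 29.4%). Ldb1 and Kdm1a were the genes added without H3K27me3 replicate 2. The median share was 8.98% to 9.86% for H3K27me3 and 32.3% to 40.2% for H3K27ac. The 61 related genes gave 37 to 52 with H3K27me3, 56 to 57 with H3K27ac and 30 to 46 with both marks, the 46 without H3K27me3 replicate 2. These are to be read against the same shares of all genes in the window. The covered shares of single genes moved by more than the spread between replicates in 93 cases and by less in 51. The H3K27me3 calls rest on peaks of low significance at an unknown depth.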

Other observations

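The list of nuclear architecture and zone genes had H3K27me3 in both libraries at 0 of 10 starts and H3K27ac at 8. Of all genes 26.7% and 61.5% carried these marks. Of the nuclear factor I genes, Nfix had H3K27me3 over 17.2% and 10.3% of its window, with none within 1 kb of its start, and H3K27ac differed in breadth among them. It covered 9.33% and 9.48% of the Nfia window, 19.5% and 21.1% of the Nfib window and 76.8% and 69.0% of the Nfix window in replicates 1 and 2. The cohesin gene Rad21 and the cohesin loader gene Nipbl had no H3K27ac peak within 1 kb of a gene start in either library. Their windows held H3K27ac peaks with a fold enrichment of 15.6 and 11.6 (Rad21) and 20.1 and 16.2 (Nipbl). Only listed starts, or gene ends where none is listed, were looked at, so peaks at other starts are not counted here.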
